A study of Homo sapiens with 28 samples.

Results

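The transcripts described here came from 10 genes of the tight junction, namely the 8 claudin genes CLDN1, CLDN2, CLDN3, CLDN4, CLDN7, CLDN11, CLDN12 and CLDN15, the occludin gene OCLN and the scaffold gene TJP1. They were chosen by name, as the rows of the deposited count tables whose gene identifier maps to these symbols, and they make up 10 of the 62703 genes counted. RNA-seq was available for 24 libraries in 8 groups of 3. MDST8 is a human colorectal cancer line of consensus molecular subtype CMS4, the subtype with high expression of mesenchymal genes, and it was sequenced as wild type (MDST8 WT) and as 5 TWIST1 knockout clones, TG1_1, TG2_2, TG3_2, TG3_5 and TG3_6. Each clone was grown from a single cell after electroporation of Cas9 with a guide RNA against TWIST1, so each is 1 clone, and TG3_2, TG3_5 and TG3_6 share the guide number in their names. Whether the WT cells passed through electroporation and sorting was not given in the sources used here. LoVo is a human colorectal cancer line outside CMS4, and it was sequenced with a treatment labelled shRNA control and with TWIST1 shRNA, which was delivered by lentivirus. The sources differ on the control: the deposited label is shRNA control, while the study's supplement compares the knockdown with wild-type LoVo cells. What the control cells carry was not given beyond that. All cells had been cultured in medium with fetal bovine serum. A TWIST1 ChIP-seq peak list was available for wild type cells of each line, from 1 library each.

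Claudins are membrane proteins that polymerise into the strands of the tight junction, the seal between neighbouring epithelial cells. Some members tighten the seal and others form pores for ions or water, so the mix of claudins sets how permeable an epithelium is. Occludin is a further membrane protein of the strands, and TJP1 encodes ZO-1, the cytoplasmic scaffold that ties the strands to actin. TWIST1 is a transcription factor of epithelial-mesenchymal transition, a programme in which epithelial junction genes are typically turned down, and it binds E-boxes, short elements with the letters CANNTG.

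The promoters of 4 members are shown because these genes carried the largest changes or, for CLDN7, the lack of one. Each sequence is the 250 bases that precede a RefSeq transcript start, read 5′ to 3′ on the strand of the gene in GRCh38.p14, and capitals mark every match to CANNTG.
CLDN11 (chr3:170418618-170418867, plus strand): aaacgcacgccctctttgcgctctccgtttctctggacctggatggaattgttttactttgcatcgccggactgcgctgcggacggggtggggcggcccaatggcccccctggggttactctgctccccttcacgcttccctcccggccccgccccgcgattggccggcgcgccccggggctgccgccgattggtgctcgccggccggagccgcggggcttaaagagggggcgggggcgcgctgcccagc
CLDN1 (chr3:190322447-190322696, minus strand): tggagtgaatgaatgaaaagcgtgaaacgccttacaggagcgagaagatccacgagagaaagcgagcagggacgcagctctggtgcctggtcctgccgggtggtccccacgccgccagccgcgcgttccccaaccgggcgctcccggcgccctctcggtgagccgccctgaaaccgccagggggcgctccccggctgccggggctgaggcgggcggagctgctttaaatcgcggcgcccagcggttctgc
CLDN2 (chrX:106899914-106900163, plus strand): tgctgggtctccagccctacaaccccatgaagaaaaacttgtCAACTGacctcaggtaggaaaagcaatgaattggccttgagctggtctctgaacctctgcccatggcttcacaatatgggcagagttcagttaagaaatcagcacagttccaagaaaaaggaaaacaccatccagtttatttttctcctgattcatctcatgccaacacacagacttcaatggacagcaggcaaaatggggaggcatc
CLDN7 (chr17:7262479-7262728, minus strand): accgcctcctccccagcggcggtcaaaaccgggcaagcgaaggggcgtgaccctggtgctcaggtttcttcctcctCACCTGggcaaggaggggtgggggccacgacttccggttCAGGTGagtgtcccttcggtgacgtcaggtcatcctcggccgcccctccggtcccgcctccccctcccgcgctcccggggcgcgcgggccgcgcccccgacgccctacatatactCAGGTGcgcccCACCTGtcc

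The printed CLDN11 and CLDN1 windows held no match, a second RefSeq window of CLDN11 (chr3:170420976-170421225) held CAAGTG 135 bases before its start, the CLDN2 window held CAACTG 208 bases before the start, and the CLDN7 window held 4 matches, which lay 174, 135, 20 and 9 bases before the start. A second RefSeq window of CLDN7 (chr17:7263214-7263463) held only CAATTG, 170 bases before its start. That of CLDN2 (chrX:106918110-106918359) held no match. Among the 17 RefSeq windows of the 10 members, 8 held CANNTG, beside 61.8% of the 35116 such windows of all genes. The word is its own reverse complement as a class, so both strands were covered by a single search. None of the 17 windows held CATCTG on either strand, which 12.2% of all windows held. CAGGTG or its complement CACCTG stood in 4 windows, from the 3 members OCLN, TJP1 and CLDN7, beside 17.5% of all windows, and this word was picked after the matches had been seen. All matches to CAGGTG and CATCTG are also matches to CANNTG. These are matches of letters and not measured sites.

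Library totals ran from 16567606 to 22217009 counts. Values are given as raw counts or as CPM, counts scaled to library size with TMM factors, at which 3 counts in a library correspond to 0.134 to 0.176 CPM in MDST8 and 0.153 to 0.184 CPM in LoVo. A gene was called higher or lower when edgeR's quasi-likelihood test gave a Benjamini-Hochberg adjusted p under 0.05 and the log2 fold change passed 0.58 in size, with genes kept at a geometric mean of at least 1 RPM (counts scaled to library size without TMM) over the libraries of a line. All 10 members passed that filter in LoVo. In MDST8 only CLDN11, CLDN12, CLDN15 and TJP1 passed, and CLDN11 passed solely through clone TG2_2, since its geometric mean was 1.10 RPM with that clone and 0.291 without it. Its difference in TG2_2 was therefore built into its selection. These means were taken with 1 RPM added to each value, and with no such offset CLDN11 failed the filter in both lines (0.467 RPM in MDST8, and 0 in LoVo, where 1 library held no count), while the other members passed or failed as before. The separate cultures behind the replicate libraries were not described, so the p-values measure the spread between libraries, which may be technical. In bulk RNA, fewer cells of a type and less RNA per cell cannot be told apart.

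The TWIST1 transcript itself was checked first. MDST8 WT held 845, 1034 and 797 TWIST1 counts, or 45.7 ± 6.08 CPM (SD, n = 3). The clone means were 37.1 CPM in TG1_1, 29.3 in TG2_2, 53.3 in TG3_2, 40.4 in TG3_5 and 44.6 in TG3_6, and TG2_2 alone was called lower (log2 fold change −0.65), a call that was lost without WT library B (−0.53). Transcript counts do not report whether a coding sequence was edited. In LoVo the counts ran against the labels: all 3 shRNA control libraries held 0 TWIST1 counts, and the libraries labelled TWIST1 shRNA held 73, 89 and 93, at least 83.6-fold higher when the floor of 3 counts is taken over the group. These libraries are therefore called the libraries labelled TWIST1 shRNA throughout. If the 2 LoVo groups had been exchanged, every direction given for them would turn, and an exchange cannot be told apart here from an effect of the treatment. Mitochondrial genes took 3.49% to 3.96% of counts in the LoVo control libraries and 10.9%, 6.24% and 5.47% in the libraries labelled TWIST1 shRNA 1, 2 and 3.

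The label of colon epithelium was checked with 16 marker genes. All 16 exceeded 1 CPM in LoVo, with sums of 9139 to 9487 CPM in the control libraries and 5153 to 5827 CPM in the libraries labelled TWIST1 shRNA. In MDST8 WT the sum was 70.6 to 76.4 CPM, 7 defining markers were at 0 (CDX1, CDX2, LGALS4, GPA33, CDH1, GRHL2 and OVOL2), and only the keratins KRT8 and KRT18 exceeded 1 CPM. Sums in the clones ran from 64.3 to 135 CPM. A list of 8 mesenchymal genes ran the other way, with 8980 to 9649 CPM in MDST8 WT, 9117 to 16291 in the clones, 193 to 202 in the LoVo control libraries and 59.5 to 66.4 in the libraries labelled TWIST1 shRNA. Most of that sum was FN1 (5406 CPM in WT, 56.2 in the LoVo control) and VIM (3467 and 110.4 CPM), whereas SNAI1 stood at 0.206 CPM in WT and 19.4 CPM in the LoVo control.

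**Figure D1:**
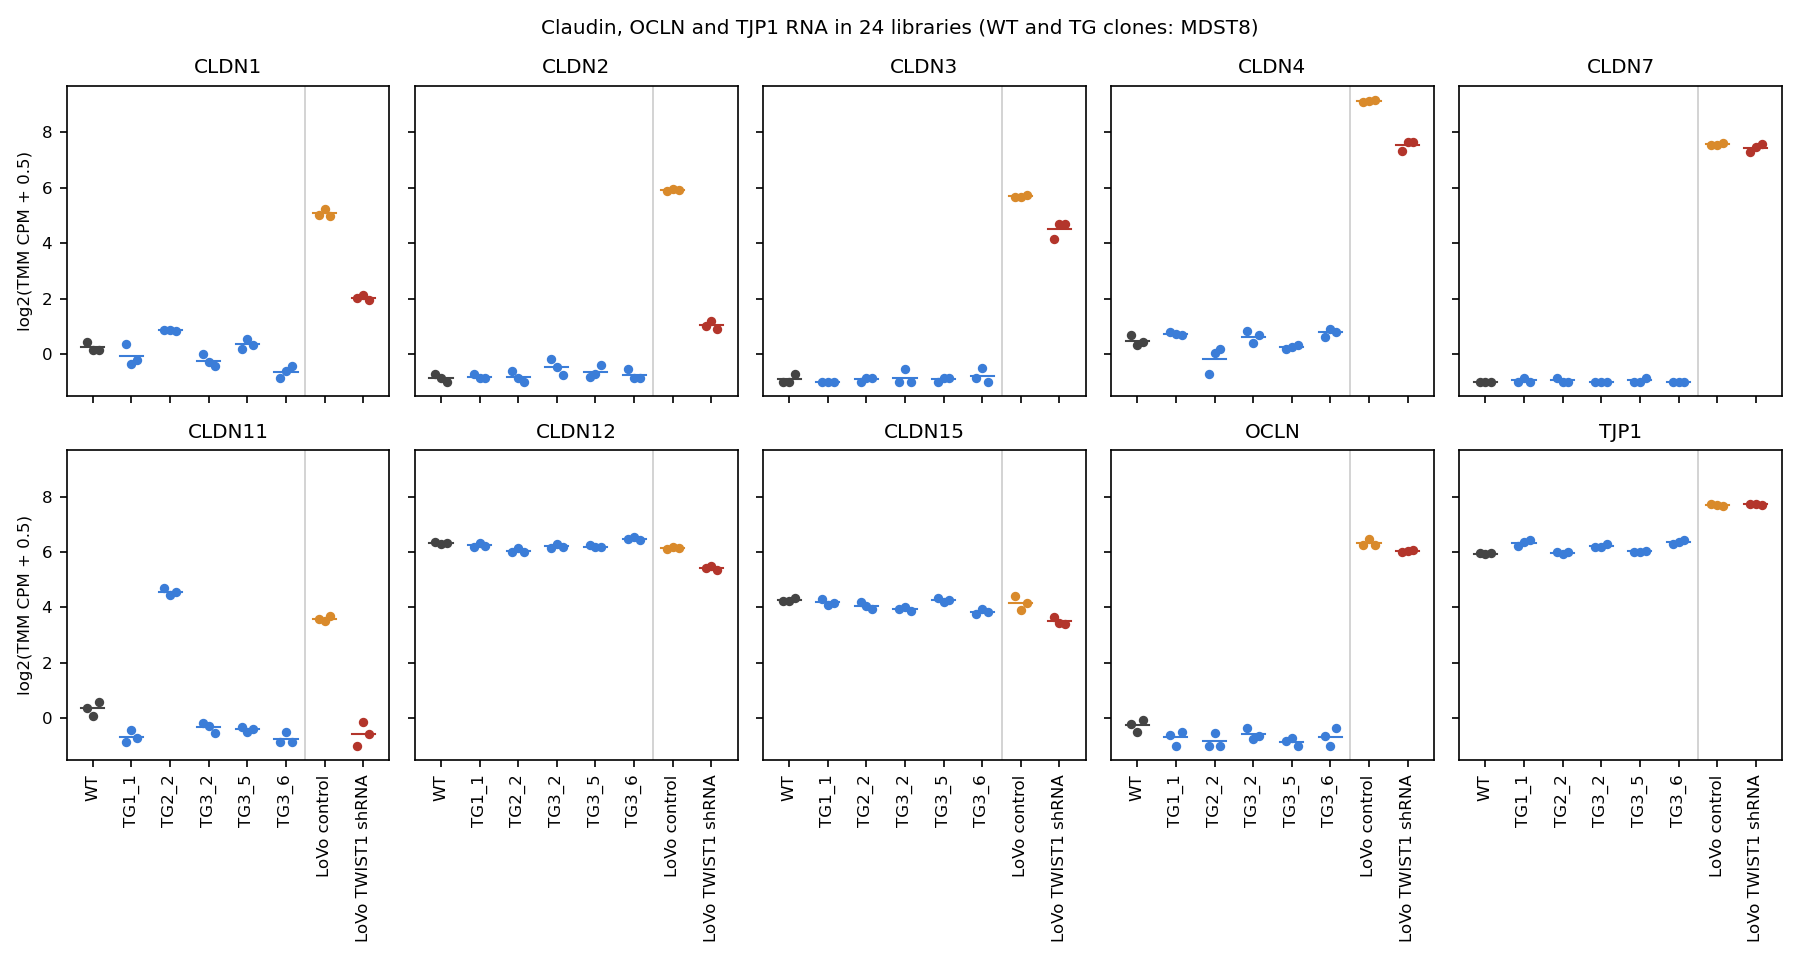
Points are single libraries, with the 10 genes in separate panels, the 8 groups on the horizontal axis and log2(CPM + 0.5) on the vertical axis; short lines are group means. CLDN1, CLDN2, CLDN3, CLDN4, CLDN7 and OCLN stood high only in LoVo, CLDN12 and CLDN15 were present in all 8 groups and lowest in the LoVo libraries labelled TWIST1 shRNA, and CLDN11 was high in TG2_2 (23 CPM) and in the LoVo control (11.5 CPM).

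The LoVo shRNA control and MDST8 WT carried different tight junction transcripts. The LoVo cells are labelled with a control treatment that MDST8 WT lacks, so line and treatment cannot be told apart here. Of the 10 members, 8 were called higher in the LoVo shRNA control than in MDST8 WT, beside 33.1% of the 15844 genes tested, and 0 were called lower, beside 33.4%. Genes were kept here when they passed the filter in either line. CLDN1, CLDN2, CLDN3, CLDN4, CLDN7 and OCLN entered only through LoVo, where they are high. CLDN11 entered only through TG2_2 and the LoVo control libraries. The count is therefore a description, and no p is given for these genes in this comparison. The median difference over the members was 6.72 on the log2 scale, beside −0.01 over all genes tested, and this median does not depend on the value taken for CLDN7, which was at 0 in WT. The colon epithelium markers moved in the same direction (16 of 16 higher), and their part in the difference was not tested.

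CLDN4, CLDN3 and CLDN7 encode claudins found along much of the intestinal epithelium. CLDN4 (ENSG00000189143.10, chr7:73799542-73832690, hg38) held 8999, 11084 and 10055 counts in the LoVo control and 21, 15 and 17 in MDST8 WT. Its level was 564 ± 11.4 CPM against 0.909 ± 0.182 CPM (SD, n = 3 each), a log2 difference of 9.27 (SE 0.11). CLDN7 (ENSG00000181885.18, chr17:7259903-7263983) held 3052, 3696 and 3399 counts in the LoVo control and 0 in each WT library. It was at least 3707-fold higher in LoVo, with the floor of 3 counts taken over the group. CLDN3 (ENSG00000165215.6, chr7:73768997-73770270) held 818, 994 and 933 counts against 0, 0 and 2. With 2 counts in WT the ratio was 1504, with a 95% counting interval of 416 to 12428. None of the 3 had overlapping groups.

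CLDN2 (ENSG00000165376.12, chrX:106900164-106930861) encodes a claudin that forms a pore for cations and water. It held 961, 1207 and 1056 counts in the LoVo control and 2, 1 and 0 in MDST8 WT, a ratio of 1178 (counting interval 403 to 5715). OCLN (ENSG00000197822.12, chr5:69492292-69558104) held 1241, 1721 and 1335 counts against 7, 4 and 9, a log2 difference of 7.85 (SE 0.19). CLDN1 (ENSG00000163347.6, chr3:190305707-190322446), which encodes a sealing claudin, held 520, 725 and 546 counts against 16, 12 and 12, a log2 difference of 5.60 (SE 0.20). All 3 thus held at most 16 counts in any WT library and at least 520 in any LoVo control library. These intervals cover counting error only.

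The remaining 4 members differed less between the lines. CLDN11 (ENSG00000013297.12, chr3:170418868-170454733), known from myelin and from the Sertoli cell barrier of the testis, held 184, 213 and 217 counts in the LoVo control and 15, 11 and 20 in WT, a log2 difference of 3.86 (SE 0.23). TJP1 (ENSG00000104067.17, chr15:29699367-29968915) stood at 206 ± 5.80 CPM against 60.8 ± 0.714 CPM (SD, n = 3 each), 3.38-fold higher (edgeR adjusted p = 1.83e-27). CLDN12 (ENSG00000157224.16, chr7:90383721-90513402), an unusual claudin whose protein lacks the PDZ-binding end that others use to reach ZO-1, stood at 70.4 ± 1.6 CPM in the LoVo control and 79.5 ± 1.96 CPM in WT. The difference of −0.17 on the log2 scale passed the test (SE 0.05, edgeR adjusted p = 0.00295) but not the fold threshold. CLDN15 (ENSG00000106404.14, chr7:101232092-101238820), a cation pore claudin of the intestine, overlapped between the lines, at 20.6, 14.3 and 17.5 CPM against 18.3, 18.1 and 19.9 CPM (log2 difference −0.11, SE 0.10, edgeR adjusted p = 0.297).

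Counted per kilobase of exon, which allows genes to be set beside each other, the LoVo control libraries ranked CLDN4 first at 120.1 CPM per kb, then CLDN7 at 76.3 and CLDN3 at 40.4. TJP1 (18.2) and CLDN2 (17.7) overlapped. They were followed by CLDN12 (10.5), CLDN1 (9.20), OCLN (7.11) and CLDN15 (6.03), the last of which overlapped with OCLN, and CLDN11 stood last at 2.67 CPM per kb. In MDST8 WT the order was CLDN12 at 11.9 CPM per kb, CLDN15 at 6.48 and TJP1 at 5.37, and every other member was under 0.2 CPM per kb. Of the summed claudin RNA per kb in a WT library, CLDN12 made up 61.4% to 63.3% and CLDN15 33.1% to 35.2%. In the LoVo control CLDN4 made up 42.3% to 42.6% and CLDN7 26.8% to 27.1%. The sum itself was 18.2 to 19.5 CPM per kb in WT and 278 to 288 in the LoVo control.

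In LoVo, the second comparison set the libraries labelled TWIST1 shRNA against the shRNA control. Of the 10 members, 7 were called lower, beside 26.1% of the 14270 genes tested, and 0 were called higher, beside 26.6%. The claudins CLDN11, CLDN2, CLDN1, CLDN4, CLDN3, CLDN12 and CLDN15 fell, while CLDN7, OCLN and TJP1 were not called. The median over the members was −0.93 on the log2 scale, beside 0.01 over all genes.

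CLDN11 went from 184, 213 and 217 counts in the control to 0, 7 and 3 in the libraries labelled TWIST1 shRNA. The groups did not overlap, and each labelled library was near or under the floor in a gene that every control library held at over 10 CPM. The ratio of summed counts was 0.0160 (95% counting interval 0.00764 to 0.0297), and the fitted log2 fold change was −5.88 (SE 0.36), which moved to −7.01 without library 2, the library with 7 counts, and to −5.26 without library 1, the library with 0. CLDN11 passed the filter on low counts through the control libraries, where it is high, so this value is a description.

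CLDN2, the pore-forming claudin, went from 59.0, 61.4 and 60.5 CPM to 1.51, 1.81 and 1.39 CPM. The log2 fold change was −5.23 (SE 0.11, edgeR adjusted p = 3.45e-16), a 37.6-fold lower level. CLDN1, a sealing claudin, went from 32.0, 36.9 and 31.3 CPM to 3.54, 3.91 and 3.34 CPM, 9.09-fold lower (log2 fold change −3.18, SE 0.12, edgeR adjusted p = 3.15e-13). For both genes each labelled library lay far under the lowest control library.

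CLDN4 and CLDN3 fell less. CLDN4 went from 553, 564 and 576 CPM to 160.5, 200.4 and 203 CPM, 2.94-fold lower (log2 fold change −1.56, SE 0.08, edgeR adjusted p = 1.07e-11). CLDN3 went from 50.3, 50.6 and 53.4 CPM to 17.5, 25.2 and 25.3 CPM, 2.23-fold lower (log2 fold change −1.16, SE 0.11, edgeR adjusted p = 4.87e-08). In both, library 1, which held 10.9% mitochondrial counts, was the lowest of its group. Without that library, the log2 fold changes were −1.44 for CLDN4 and −0.99 for CLDN3, and 7 members were still called lower.

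CLDN12 and CLDN15 lay close to the fold threshold. CLDN12 went from 68.9, 72.1 and 70.2 CPM to 42.6, 44.4 and 39.7 CPM (log2 fold change −0.71, SE 0.07, edgeR adjusted p = 4.86e-08). CLDN15 went from 20.6, 14.3 and 17.5 CPM to 11.99, 10.4 and 10.1 CPM (log2 fold change −0.65, SE 0.14, edgeR adjusted p = 0.00036). Neither gene had overlapping groups, but the CLDN15 call rested on control library A, the highest of the group, and was lost without it (−0.52), as it was with upper-quartile scaling (−0.56).

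CLDN7, OCLN and TJP1 stayed within the fold threshold. CLDN7 stood at 188, 188 and 195 CPM in the control and 157, 178 and 190 CPM in the libraries labelled TWIST1 shRNA, so the groups overlapped (log2 fold change −0.09, SE 0.07, edgeR adjusted p = 0.216). OCLN stood at 76.3, 87.6 and 76.4 CPM against 63.9, 64.5 and 66.9 CPM. Its groups did not overlap and the test was passed (edgeR adjusted p = 0.00149), but the log2 fold change of −0.27 (SE 0.07) did not reach the threshold. TJP1 stood at 211, 206 and 200 CPM against 214, 213 and 206 CPM (log2 fold change 0.07, SE 0.06, edgeR adjusted p = 0.281). With 3 libraries a side, an exact permutation test of any single gene cannot give a p below 0.1.

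The mix of claudin RNA shifted with these changes. The sum per kb over the 8 claudins was 278 to 288 CPM per kb in the control and 123 to 150.2 in the libraries labelled TWIST1 shRNA. CLDN7 made up 26.8% to 27.1% of that sum in the control and 48.9% to 51.3% in the libraries labelled TWIST1 shRNA, while CLDN4 went from 42.3% to 42.6% down to 27.8% to 29.3%. CLDN2 went from 6.15% to 6.39% down to 0.272% to 0.364%. The ranges of the groups did not overlap for any of these 3 genes.

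Other epithelial genes moved with the claudins in the same libraries. Of the 16 colon epithelium markers, 12 were called lower and 1 higher, beside 26.1% and 26.6% of all genes tested. Of the 8 mesenchymal genes 4 were tested, and of these 3 were called lower and 0 higher. Mesenchymal genes with a mean over 1 CPM numbered 4 in the control libraries and 5 in the libraries labelled TWIST1 shRNA. ZEB2 was at 0 in the control libraries alone, and CDH2 in the libraries labelled TWIST1 shRNA alone. CDX2, the caudal homeobox factor of intestinal identity, went from 263 ± 13 to 31.4 ± 3.01 CPM and the intestinal cadherin CDH17 from 688 ± 31.7 to 21 ± 2.96 CPM, whereas the epithelial splicing factor ESRP1 went from 15.8 ± 1.20 to 389 ± 9.82 CPM (SD, n = 3 each). Among 13 markers of other cell types, PTPRC was at 0 in the libraries labelled TWIST1 shRNA and CD3E in both LoVo groups, and the sum went from 4.53 to 6.81 CPM up to 55.2 to 81.6 CPM, mostly through the collagen gene COL1A1 (3.18 ± 1.31 to 65.0 ± 13.3 CPM; SD, n = 3 each). The part of these shifts in the claudin changes was not tested.

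**Figure D2:**
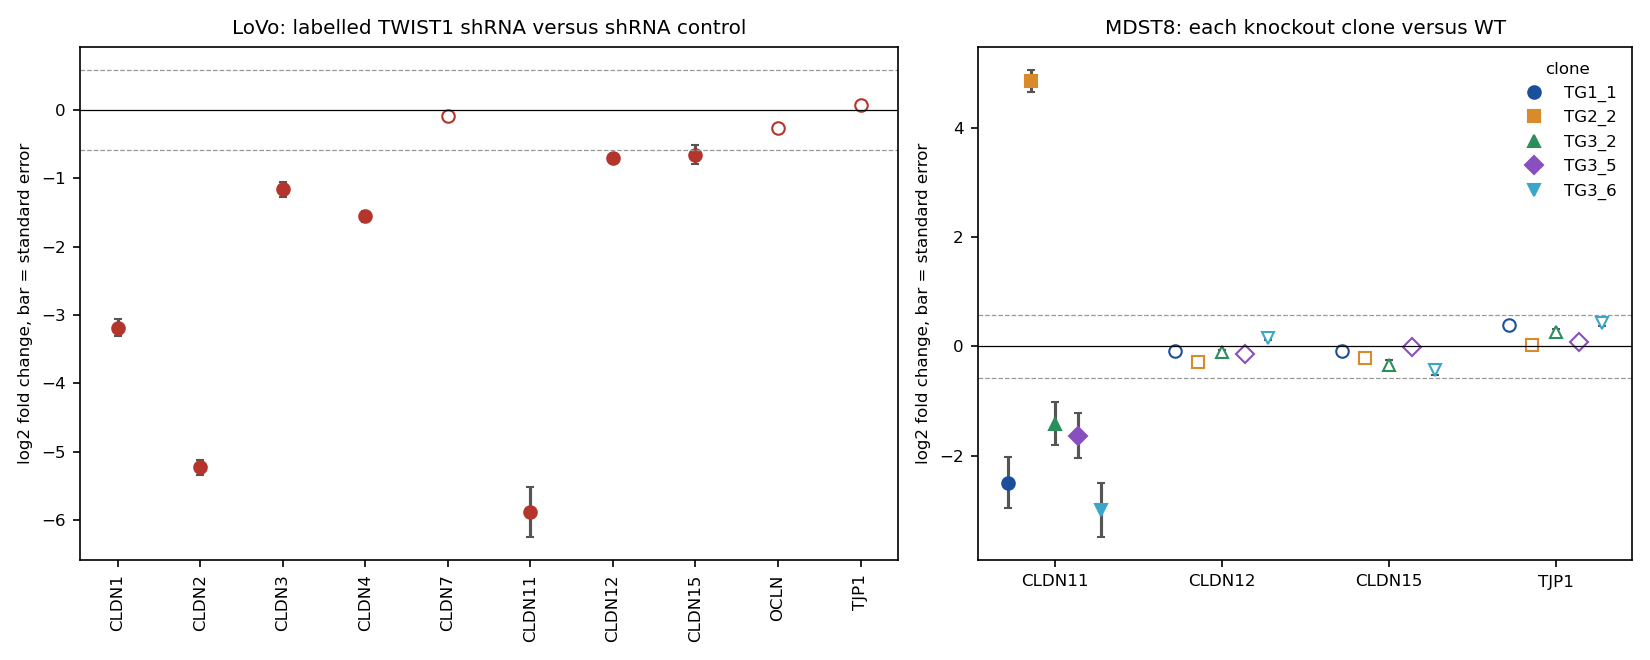
Log2 fold changes with standard errors are plotted for the 10 genes in LoVo (left, libraries labelled TWIST1 shRNA against shRNA control) and for the 4 genes tested in MDST8 (right, each of the 5 clones against WT); dashed lines mark 0.58 in size and filled markers are called genes. In LoVo 7 genes lie under the lower line, and in MDST8 CLDN11 alone leaves the band, upward in TG2_2 (4.85) and downward in the other 4 clones.

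In MDST8, each knockout clone was set against the same 3 WT libraries, so the 5 comparisons are not independent of each other. CLDN11 was the only one of the 4 tested members called in any clone, and its direction differed between clones. Since it passed the filter through TG2_2, these counts describe the members and support nothing about them, and with no offset in the filter they were 0 of 3 in each clone. Clone TG2_2 was called higher (1 of 4 members, beside 8.05% of the 13706 genes tested) and had 0 members lower, beside 6.64%. In the other clones 0 members were higher and 1, CLDN11, was lower. For TG1_1 the shares of all genes called were 12% higher and 7.49% lower, for TG3_2 10.9% and 6.09%, for TG3_5 11.2% and 7.25%, and for TG3_6 15.3% and 11.7%. No member was called in the same direction in all 5 clones, beside 3.17% of genes higher in each and 1.06% lower in each.

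CLDN11 held 15, 11 and 20 counts in MDST8 WT and 488, 431 and 433 in TG2_2. The level rose from 0.786 ± 0.227 to 23 ± 2.07 CPM (SD, n = 3 each), a log2 fold change of 4.85 (SE 0.20). The gene entered the test only through these libraries, so no p is given for this value. Without any filter on low counts, the fitted value was also 4.85. Per kilobase, CLDN11 in TG2_2 (5.32 CPM per kb) overlapped with TJP1 (5.51), which in turn overlapped with CLDN15 (5.60). It made up 22.7% to 26.5% of the claudin RNA per kb in that clone, beside 0.705% to 1.20% in WT.

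The other 4 clones held 1 to 7 CLDN11 counts in any library. TG1_1 held 1, 5 and 2 counts, TG3_2 held 7, 7 and 4, TG3_5 held 5, 4 and 5, and TG3_6 held 1, 4 and 1, so that no library of these clones reached the 11 counts of the lowest WT library. The log2 fold changes were −2.49 in TG1_1 (SE 0.47), −1.41 in TG3_2 (SE 0.39), −1.63 in TG3_5 (SE 0.41) and −2.98 in TG3_6 (SE 0.49). Since TG2_2 alone brought the gene into the test, no p is given for these values, which stand as a description. Without library B of the clone the value moved to −3.22 in TG1_1 and to −3.92 in TG3_6. Ordered by mean CPM, from TG3_2 over TG3_5 and TG1_1 to TG3_6, neighbouring clones overlapped.

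TJP1 lay above WT in all 5 clones by small amounts. The WT libraries stood at 61.3, 60.0 and 61.1 CPM, TG1_1 at 73.8, 82.3 and 85.2 CPM (log2 fold change 0.40, edgeR adjusted p = 1.80e-08) and TG3_6 at 77.4, 80.8 and 85.7 CPM (0.42, edgeR adjusted p = 4.16e-09). TG3_2 stood at 71.4, 71.6 and 77.8 CPM (0.27, edgeR adjusted p = 1.98e-05), TG3_5 at 64.1, 63.1 and 65.5 CPM (0.07, edgeR adjusted p = 0.222) and TG2_2 at 63.6, 60.6 and 62.7 CPM (0.03, edgeR adjusted p = 0.692). TG2_2 was the single clone whose libraries overlapped with WT, and no clone passed the fold threshold.

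CLDN12 and CLDN15 moved little. For CLDN12 the WT libraries stood at 80.8, 77.2 and 80.4 CPM. TG2_2 was the lowest clone, at 63.8, 70.5 and 63.0 CPM (log2 fold change −0.28, SE 0.05, edgeR adjusted p = 9.83e-06), and TG3_6 the highest, at 88.8, 91.7 and 85.6 CPM (0.16, SE 0.05, edgeR adjusted p = 0.00406), with both clear of the WT libraries. With the counter's default settings, reads on exons that CLDN12 shares with GTPBP10 (5.17% of its exon bases), CDK14 (3.00%) and PTTG1IP2 (7.92%) are left out of the counts, as are those that CLDN2 shares with RIPPLY1 (9.99%) and CLDN7 with ELP5 (1.52%) on the opposite strand. The same holds for the exons that CLDN11 shares with ENSG00000285218 (15.8%) and CLDN7 with ENSG00000262302 (10.8%), genes that held 0 counts in all libraries. For CLDN15 the WT libraries stood at 18.3, 18.1 and 19.9 CPM and those of TG3_6 at 12.9, 14.8 and 13.9 CPM (log2 fold change −0.44, SE 0.08, edgeR adjusted p = 2.62e-05), while TG3_5 at 19.6, 17.9 and 18.7 CPM overlapped with WT (−0.01, edgeR adjusted p = 0.944). For each gene 3 of the 5 clones had an adjusted p under 0.05, and none passed the fold threshold.

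The 6 members that missed the filter in MDST8 held at most 28 counts in any library of that line. CLDN4 held 15 to 21 counts in WT, 11 to 28 in TG1_1, TG3_2, TG3_5 and TG3_6, and 2, 11 and 12 in TG2_2. CLDN1 held 16, 12 and 12 counts in WT, 26, 27 and 24 in TG2_2, 9, 7 and 5 in TG3_2 and 1, 3 and 5 in TG3_6. None of these clones overlapped with WT, while TG1_1 and TG3_5 did. OCLN held 0 to 9 counts, CLDN2 0 to 7, CLDN3 0 to 4 and CLDN7 0 or 1 in any MDST8 library, levels around the floor of 3 counts. Reads of the processed copy OCLNP1 numbered 0 or 1 in MDST8 libraries and 4 to 11 in LoVo, and those of CLDN7P1 were 0 in all.

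Differences among the 5 clones were tested directly by an F test that leaves out WT. TJP1, CLDN12 and CLDN15 differed (edgeR adjusted p = 2.64e-09, 2.15e-08 and 0.000121), as did 81.0% of all genes tested, so this says little about these genes in particular. CLDN11 passed as well, but TG2_2 had brought it into the test, and its clone values above stand as a description. The difference between the LoVo effect and the mean effect of the 5 clones was tested for the genes that passed the filter in both lines. It was −0.65 on the log2 scale for CLDN12 (edgeR adjusted p = 1.86e-10), −0.47 for CLDN15 (edgeR adjusted p = 0.00193) and −0.21 for TJP1 (edgeR adjusted p = 0.00248). Of the 12132 genes tested, 79.0% differed. The CLDN11 value of −5.19 averages 1 clone that stood above WT with 4 that stood below it, and it rests on the same selection. The TJP1 difference did not pass with upper-quartile scaling (−0.10, edgeR adjusted p = 0.135).

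The genes whose pattern across the 18 MDST8 libraries was most like that of each tested member were found by Pearson's r on log2(CPM + 0.5). For CLDN11 they were PLOD1 (r = 0.957), a lysyl hydroxylase of collagen, and TM4SF18 (0.952), a small multi-pass membrane protein. For TJP1 they were CRACD (0.958) and the long noncoding RNA LUCAT1 (0.954), for CLDN12 PDE6D (0.916) and PLS1 (0.906), and for CLDN15 BORCS8 (0.875) and SIN3B (0.872). The 18 points share 6 groups of 3, so these values mostly describe 6 group means, and for CLDN11 they mostly describe TG2_2 against the rest.

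**Figure D3:**
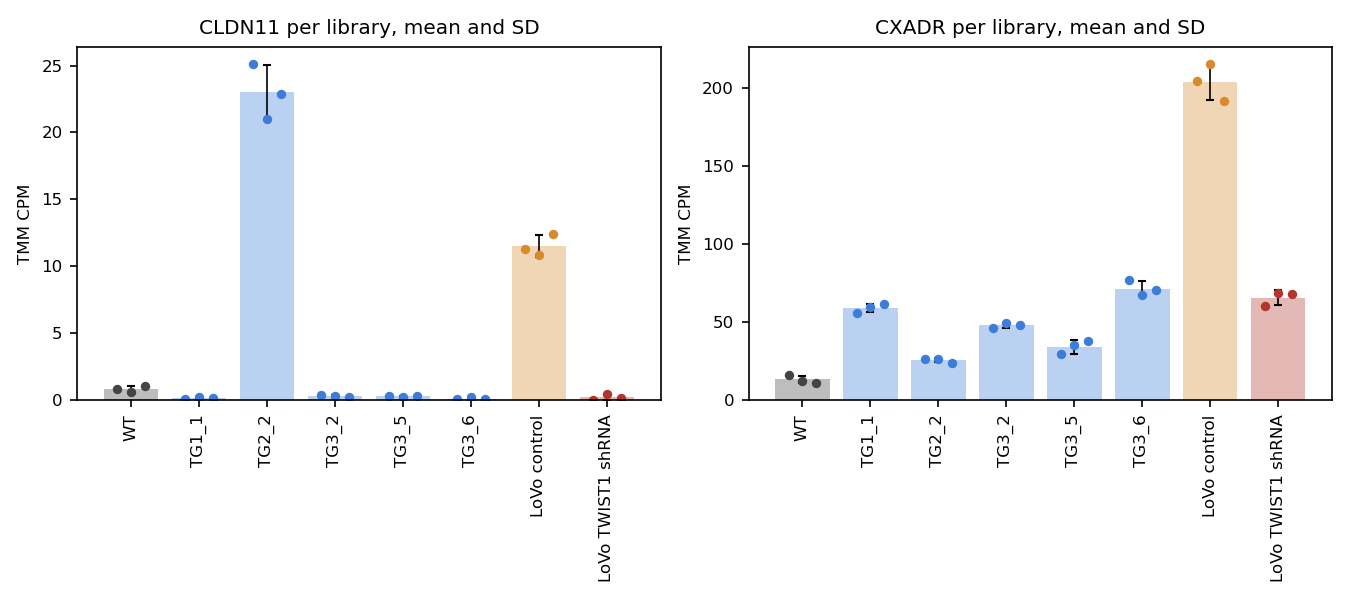
Bars are group means, points single libraries and error bars SD (n = 3), in CPM on linear axes from 0, for CLDN11 (left) and CXADR (right) in the 8 groups. CLDN11 stands out in TG2_2 and the LoVo control, whereas CXADR is above WT in all 5 clones and falls in the LoVo libraries labelled TWIST1 shRNA.

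A list of 47 other tight junction genes, covering adhesion molecules, scaffolds and polarity proteins, was read in the same fits. In MDST8, where 24 of them were tested, 7 were called higher and 5 lower in TG1_1, 2 and 4 in TG2_2, 7 and 1 in TG3_2, 6 and 1 in TG3_5, and 7 and 2 in TG3_6. These counts stand beside shares of all genes of 12% and 7.49% in TG1_1, 8.05% and 6.64% in TG2_2, 10.9% and 6.09% in TG3_2, 11.2% and 7.25% in TG3_5, and 15.3% and 11.7% in TG3_6. The single gene called in the same direction in all 5 clones was CXADR, which encodes the coxsackievirus and adenovirus receptor, an adhesion molecule associated with tight junctions. This 1 gene of 24 stands beside 3.17% of all genes called higher in all 5 clones, a share near that of the list. CXADR rose from 15.7, 12.3 and 11.1 CPM in WT to 56.0, 59.5 and 61.3 in TG1_1, 26.0, 26.5 and 23.8 in TG2_2, 46.2, 49.2 and 48.1 in TG3_2, 29.2, 34.9 and 38.0 in TG3_5 and 76.7, 67.3 and 70.4 in TG3_6. Every clone library lay above every WT library, and the log2 fold changes were 2.17, 0.96, 1.87, 1.39 and 2.46 in that order of clones (largest edgeR adjusted p = 1.74e-10, in TG2_2). Clone TG2_2, which had the highest CLDN11 level, had the smallest CXADR rise.

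In LoVo, 28 genes of the list were tested, and in the libraries labelled TWIST1 shRNA 7 of them rose and 11 fell past the threshold, beside 26.6% and 26.1% of all genes. CXADR was among the lower ones, at 205, 215 and 192 CPM in the control and 60.3, 68.8 and 67.8 CPM after (log2 fold change −1.61, SE 0.07, edgeR adjusted p = 1.28e-12), opposite in sign to its change in the clones. For CXADR the LoVo effect minus the mean clone effect was −3.41 on the log2 scale (edgeR adjusted p = 2.59e-25). CGN, which encodes cingulin, a cytoplasmic linker to the cytoskeleton, went from a mean of 64.3 to 20.2 CPM (log2 fold change −1.64, SE 0.08, edgeR adjusted p = 9.75e-12). The angiomotin genes AMOTL1 and AMOT rose, AMOTL1 from 0.269 to 47.6 CPM (7.40, SE 0.20, edgeR adjusted p = 5.97e-15) and AMOT from 2.02 to 9.90 CPM (2.29, SE 0.25, edgeR adjusted p = 2.89e-07), while AMOTL2 was not called (0.26). ILDR1, which encodes an angulin of tricellular contacts, went from 1.99 to 11.3 CPM (2.52, SE 0.19, edgeR adjusted p = 3.44e-09). Between the lines 32 genes of the list were tested, and 20 were higher and 8 lower in the LoVo control than in MDST8 WT, beside 33.1% and 33.4% of all genes.

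The TWIST1 ChIP-seq peak lists were read at 3000 bp on either side of the 5′ end of each gene. In MDST8 8 of the 10 members had a listed peak there, all but CLDN2 and TJP1, beside 76.5% of the genes tested in that line. In LoVo 4 had a peak, namely CLDN2, CLDN4, CLDN12 and TJP1, beside 58.2%. The lists held 338877 and 333621 peaks at a p-value under 0.05, of which 0.317% and 0.465% reached a q-value of 0.05, so a listed peak near a gene was common.

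None of the peaks near the members reached that q-value. The 12 MDST8 peaks had a fold enrichment of 1.74 to 2.82 and the 5 LoVo peaks of 1.75 to 2.55, beside medians of 2.29 and 2.25 over the lists, and their highest −log10 q was 0.185 and 0. The strongest by p-value lay at −2020 bp from the 5′ end of CLDN7 in MDST8 (chr17:7264966-7266097, fold enrichment 2.82, −log10 p 3.07), a gene with 0 or 1 counts in any MDST8 library. The next were 2 peaks of CLDN12 in MDST8, whose summits lay at −2721 and −1297 bp from the 5′ end (−log10 p 3.01 and 2.81). At CLDN11 the MDST8 list held 1 peak, at −914 bp (chr3:170417681-170417995, fold enrichment 1.98, −log10 p 1.70), and the LoVo list held none. At CLDN1 the nearest summit in MDST8 lay 133 bp into the gene (chr3:190321615-190322343, −log10 p 1.93). At CLDN2, which fell in LoVo, the LoVo list held 1 peak, 2813 bp into the gene (chrX:106902948-106903172, −log10 p 1.39). None of the 4 promoter windows printed above was overlapped by a listed peak in either line. At other RefSeq starts, an MDST8 peak overlapped a window of CLDN2 (chrX:106918110-106918409) and 1 of TJP1 (chr15:29821430-29821729). The RefSeq starts of CLDN4 and CLDN12 lay 31454 and 19740 bp from the 5′ ends used here, so the peaks given for these genes are not at their RefSeq promoters.

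The counts depended on the window and the threshold. Within 1000 bp, 5 members had a peak in MDST8 and 2 in LoVo, beside 53.4% and 32.4% of genes, and at a p-value of at most 0.001, 2 and 0 members had one, beside 28.3% and 18.8% of genes. With 1 library per line there was no test of the difference between the lists, and the inputs were not analysed here.

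**Figure D4:**
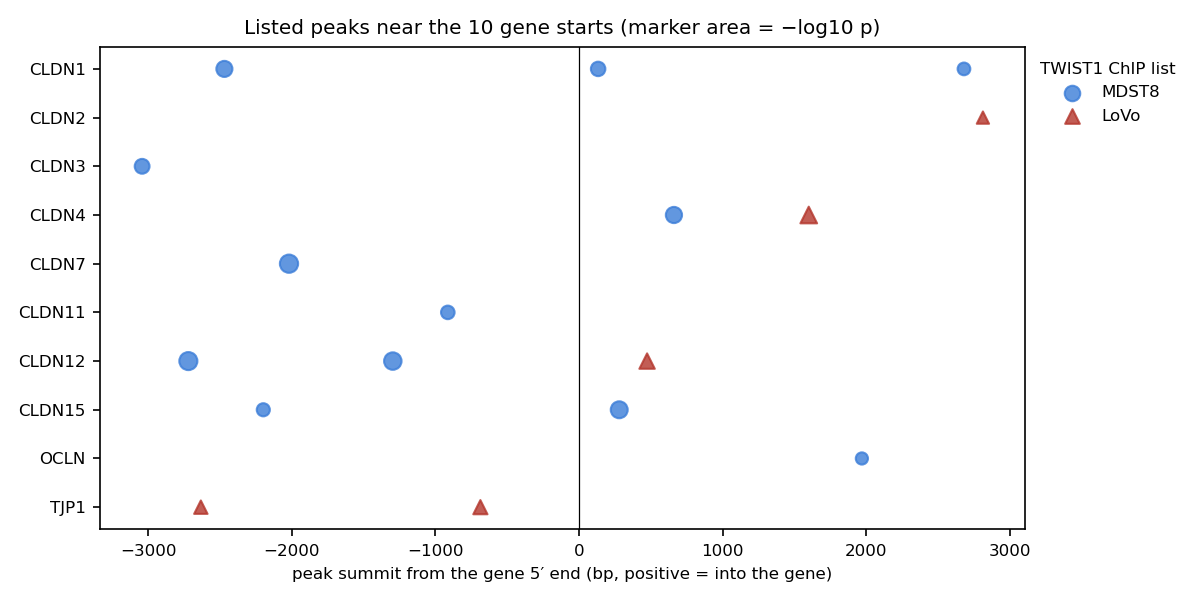
Each marker is the summit of a listed TWIST1 ChIP-seq peak, by its distance in bp from the 5′ end of the gene (negative values upstream), with the 10 genes as lines, circles for MDST8, triangles for LoVo and marker area proportional to −log10 p. The 12 MDST8 and 5 LoVo summits were scattered over the window rather than gathered at the start.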

How the data were processed

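RNA was sequenced as poly(A)-selected, dUTP directional libraries. The authors trimmed reads with Trim Galore 0.6.6, aligned them to hg38 with HISAT2 2.1.0, sorted them with SAMtools 1.6 and made the deposited raw counts per gene with featureCounts 2.0.0 on GENCODE v43. Per the file headers the command held no strand and no multi-mapping option, so reads of multi-copy or overlapping genes are left out and antisense reads cannot be told apart. The peaks were called with Bowtie2 2.4.5 and MACS2 2.2.7.1 on 1 library per line. Whether the input served as control, and the build of the ChIP alignment beyond the hg38 that the labels list, were not given in the sources used here. The deposited peak lists give a fold enrichment (a ratio), −log10 p and q values and a score, and the score was not used.

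Counts were mapped to symbols (62639 of 62703 genes) and analysed in R 4.3.3 with edgeR 4.0.16, using TMM factors and the quasi-likelihood test, with all 6 MDST8 groups in 1 fit, the LoVo groups in another and both lines together for comparisons between lines. The filter (a geometric mean of at least 1 RPM) and the threshold of 0.58 follow the study, except that 1 RPM was added before the mean and taken off after, and the count test replaces its limma fit, which is among the alternatives. Standard errors are the log2 fold change divided by the square root of F. Alternatives were other scaling, filters, tools (limma 3.58.1, DESeq2 1.42.0), a replicate block, each library left out, and for peaks the window and threshold. Windows at RefSeq starts and the filter without that offset were added after seeing the data. The fits were tested on simulated data. Sequences came from RefSeq (GRCh38.p14), in which all 10 members matched. All members are named, as are the other tight junction genes called in all 5 clones, the 3 largest rises and falls of that list in LoVo, and the 2 genes most like each member. A gene that this rule would name is not reported here. The members and lists were chosen with earlier results of these data known. Samples of the inputs were not analysed here.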

Additional observations from a re-analysis of the deposited data

Results flagged for a closer look

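The effects on TJP1, CLDN12 and CLDN15 differed between groups by a test of the difference itself. CLDN11 passed the same tests, but only after a selection on these data. Among the 5 MDST8 knockout clones, edgeR's F test gave an adjusted p of 3.02e-27 for CLDN11, whose log2 fold change against WT ran from −2.98 to 4.85, 2.64e-09 for TJP1 (0.03 to 0.42), 2.15e-08 for CLDN12 (−0.28 to 0.16) and 0.000121 for CLDN15 (−0.44 to −0.01). CLDN11 passed the filter on low counts only through TG2_2, and through the control libraries in LoVo, so its p-values here are no support for a difference. All 3 clones with the third guide number held low CLDN11, and TG1_1 did as well, so TG2_2 stood alone. The LoVo effect minus the mean clone effect was −5.19 for CLDN11 (edgeR adjusted p = 6.9e-11), −0.65 for CLDN12 (edgeR adjusted p = 1.86e-10), −0.47 for CLDN15 (edgeR adjusted p = 0.00193) and −0.21 for TJP1 (edgeR adjusted p = 0.00248). TWIST1 counts ran against the labels in LoVo, so the sign of these differences follows the labels and not the transcript. Beside these results, 81.0% of all genes tested differed among clones. For the LoVo effect minus the mean clone effect the share was 79.0%, and no cause was tested. Groups of 3 libraries were too small for a check on single outlying libraries.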

How the results depend on the processing

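Of 962 values of single genes under the alternatives, 949 kept their direction and their side of the threshold, 4 kept only the direction and 9 turned. With no filter on low counts, 2 of 10 tested members were called in TG2_2, 2 in TG3_5 and 2 in TG3_6. Of the 36578 genes then tested, 2646, 3267 and 4918 were called in those clones. With edgeR's own filter 3 of 6 members were called in TG2_2 and 2 of 6 in TG3_6, beside 2589 and 4601 of 16722 genes. The main fit called 1 of 4 members in each, beside 2014, 2535 and 3704 of 13706 genes in TG2_2, TG3_5 and TG3_6. With a geometric mean filter without offset, chosen after seeing the data, CLDN11 was left out, and 0 members were called in TG1_1, TG2_2, TG3_2, TG3_5 and TG3_6. The interaction without the filter called 8 of 10 members, beside 12367 of 28666 genes. In the main fit it called 4 of 4 members, beside 9586 of 12132 genes. The values that turned sign all lay near 0. With upper-quartile scaling CLDN15 in TG3_5 was 0.014 (0.0047 with the filter without offset), TWIST1 in TG3_6 was 0.0052 and CLDN7 in LoVo was 0.0015, and with limma on log2(count + 1) TWIST1 in TG3_6 was 0.10. Leaving out 1 library gave −0.034 to 0.051 for CLDN15 in TG3_5, −0.11 to 0.082 for TWIST1 in TG3_6 (above 0 without WT B) and −0.25 to 0.011 for CLDN15 between the lines (above 0 without LoVo control B). Limma on unscaled log2 counts shifted the median of all genes by 0.125 in TG3_6 and moved the share of rises among calls from 56.7% to 71.0% there, from 64.1% to 74.3% in TG3_2 and from 60.8% to 51.3% in TG3_5. Upper-quartile scaling shifted the median of the interaction by 0.108. Leaving out 1 library gave 1 to 1 called members in each clone, 6 to 7 in LoVo, 8 to 8 between the lines and 4 to 4 for both tests of differences, with 0 to 0 called alike in all 5 clones. In these fits the genes tested were kept as in the main fit, so CLDN11 stayed in by construction. The steady clone counts therefore say nothing about whether CLDN11 would pass the filter without a library. Members with a peak numbered 5 in MDST8 and 2 in LoVo within 1000 bp, and 8 in LoVo within 5000 bp, beside 71.8% of genes for the last. They numbered 2 and 0 at p of at most 0.001, 0 and 0 at q of at most 0.05, and 10 and 4 around RefSeq starts (80.1% and 61.3% of genes), an alternative chosen after seeing the data. With the replicate block by letter each clone still had 1 called member, 0 were alike in all 5, 4 differed among clones, 8 between lines and 4 in the interaction, so it changed no call. No deviation shared by letter was seen: over the 15 pairs of a clone library with the WT library of its letter, the correlations of deviations from group means ran from −0.0975 to 0.101. Whether libraries of a letter were handled together cannot be told from these values. The 6 members under the filter in MDST8 held at most 28 counts a library and were tested there only with other filters.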

Other observations

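CLDN1, CLDN4 and OCLN missed the filter in MDST8, and tests that keep low counts called them in single clones. CLDN1, a sealing claudin, was lower in TG3_6 without a filter (9 counts in all against 40 in WT, log2 fold change −2.25, edgeR adjusted p = 0.0002) and higher in TG2_2 with edgeR's own filter (77 counts against 40, 0.92, edgeR adjusted p = 0.0379), a call not made without a filter (0.92, edgeR adjusted p = 0.0752). CLDN4, an epithelial claudin, was lower in TG2_2 without a filter (25 counts against 53, −1.10, edgeR adjusted p = 0.0416) and with edgeR's own filter (−1.09, edgeR adjusted p = 0.0236). OCLN was lower in TG3_5 without a filter (3 counts against 20, −2.55, edgeR adjusted p = 0.0316). All of these levels lay below 2 CPM.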
